A study of Mus musculus with 9 samples.

Results

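The genes described here are 10 early response genes that are switched on within minutes by growth factors, cytokines or stress: the transcription factor genes Egr1, Egr2 and Egr3, the immediate early response genes Ier2, Ier3 and Ier5, the MAP kinase phosphatase genes Dusp1 and Dusp2, and the mRNA decay genes Zfp36 and Zfp36l1. They were chosen by symbol, and each symbol was found once among the 31053 genes of the matrices, so that all 10 of 31053 genes were followed. RNA of single LSK cells (Lin- cKit+ Sca1+ bone marrow cells, the fraction that holds the stem and multipotent progenitor cells of blood) was sequenced from C57BL/6 mice in 9 libraries, with 3 samples each of a young, an aged and a CASIN group. Young mice were 10 to 12 weeks old and aged mice over 80 weeks. The CASIN samples came from aged mice that received 4 intraperitoneal injections of 25 mg/kg CASIN, an inhibitor of the small GTPase Cdc42, one every 24 h. Marrow was harvested on day 5. Young and aged controls received only the carrier cyclodextrin. The LSK cells of every group were frozen alive and thawed before the sort. How many mice stand behind a library was not given in the sources used here, so that p-values measure only the spread between these samples. Sequencing batch 1 held young 1, young 2, aged 1, CASIN 1 and CASIN 2, and batch 2 held young 3, aged 2, aged 3 and CASIN 3.

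Early response genes need no new protein to be transcribed. Signals that reach ERK, JNK or p38 act on factors already bound at their promoters, above all the serum response factor with its partners on CArG boxes and CREB on cyclic AMP response elements. Several of the products then shut the response down again: Dusp1 and Dusp2 remove phosphates from MAP kinases in the nucleus, and Zfp36 (tristetraprolin) and Zfp36l1 bind AU-rich elements and hasten the decay of short-lived mRNAs, including those of early response genes. In the blood system Egr1 is known as a gene that keeps stem cells quiescent and in their niche, and Zfp36l1 acts in lymphoid progenitors.

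Promoter sequence is printed for 3 members, because each carries a textbook element of one of the inputs named above or of the Egr proteins themselves. Zfp36 also held a CArG box and an Egr protein motif, 58 and 105 bases before the start. Its window lies in an annotated exon and is not printed. No promoter of Egr1, Egr3 or Ier2 was searched. The windows of Ier3, Ier5 and Zfp36l1 held no CArG box, cyclic AMP response element or Egr protein motif. Sequences are those of RefSeq on GRCm38.p6, 5′ to 3′ on the strand of the gene, up to the 250 bases before the start site, and capitals mark the element found. The Dusp1 run covers chr17:26508520-26508722 (minus strand) and stops 48 bases before the start, and its capitals are the cyclic AMP response element TGACGTCA, which begins 143 bases before the start. The Dusp2 run covers chr2:127335909-127336158 (plus strand), and its capitals are GCGGGGGCG, the binding motif of Egr proteins, 98 bases before the start. The Egr2 run covers chr10:67537316-67537565 (plus strand), and its capitals are a CArG box, 72 bases before the start. It is the most upstream Egr2 promoter row with an element, and lies within the annotated gene (67535475-67542188). The row further upstream, chr10:67535249-67535498, held none of the elements searched for.
Dusp1: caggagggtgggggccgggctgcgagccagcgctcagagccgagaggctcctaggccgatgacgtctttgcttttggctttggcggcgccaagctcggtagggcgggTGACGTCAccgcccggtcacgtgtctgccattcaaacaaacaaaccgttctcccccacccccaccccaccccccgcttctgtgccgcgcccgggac
Dusp2: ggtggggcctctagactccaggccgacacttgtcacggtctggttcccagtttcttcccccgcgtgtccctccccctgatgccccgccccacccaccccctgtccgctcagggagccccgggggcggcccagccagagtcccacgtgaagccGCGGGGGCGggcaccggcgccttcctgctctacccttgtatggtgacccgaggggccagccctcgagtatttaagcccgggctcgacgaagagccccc
Egr2: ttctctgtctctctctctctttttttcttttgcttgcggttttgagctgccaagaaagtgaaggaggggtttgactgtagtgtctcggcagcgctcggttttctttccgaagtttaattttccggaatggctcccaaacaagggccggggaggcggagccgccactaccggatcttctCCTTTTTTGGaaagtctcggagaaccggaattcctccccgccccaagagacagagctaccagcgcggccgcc
Of the 32851 mouse promoters of the same length, searched on both strands, 1.55% held TGACGTCA, 2.57% held GCGGGGGCG and 1.47% held a CArG box. The AP-1 motif TGACTCA, found in 4.46% of promoters, was in none of the 11 promoter rows of the 7 members that had one. A match is a description of these letters and not a bound site.

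The 9 libraries held 19237354 to 42780953 UMIs, and 15856 of 32387 barcodes passed the filters. The batches stood apart: 73.8% of barcodes passed in batch 1 and 34.4% in batch 2, where the median mitochondrial share of all barcodes was 14.0% against 3.35% in batch 1. A pair of libraries shared at most 16 barcodes of kept cells and at most 0.989% of those of the smaller library. Before the filters these maxima were 85 barcodes and 4.31%, both for young 1 and CASIN 1 of batch 1. Libraries of different batches shared at most 7. The source of the shared barcodes was not tested. Clusters were built without 45 immediate early genes (any members among the variable genes included) and named from marker genes. They held HSC-like cells (4715 cells, in a cluster without and a cluster with MHC class II genes), LMPP-like cells (3084 cells, lymphoid-primed progenitors with Dntt, Satb1 and Flt3) and 5 further clusters, called by their leading genes or as cycling-like. HSC-like cells made up 19.0%, 17.0% and 21.8% of young 1, 2 and 3, 46.7%, 29.1% and 27.4% of aged 1, 2 and 3, and 35.5%, 32.9% and 41.1% of CASIN 1, 2 and 3. This share moves with the groups beside every value for all LSK cells, and values within HSC-like and LMPP-like cells are given for that reason.

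**Figure D1:**
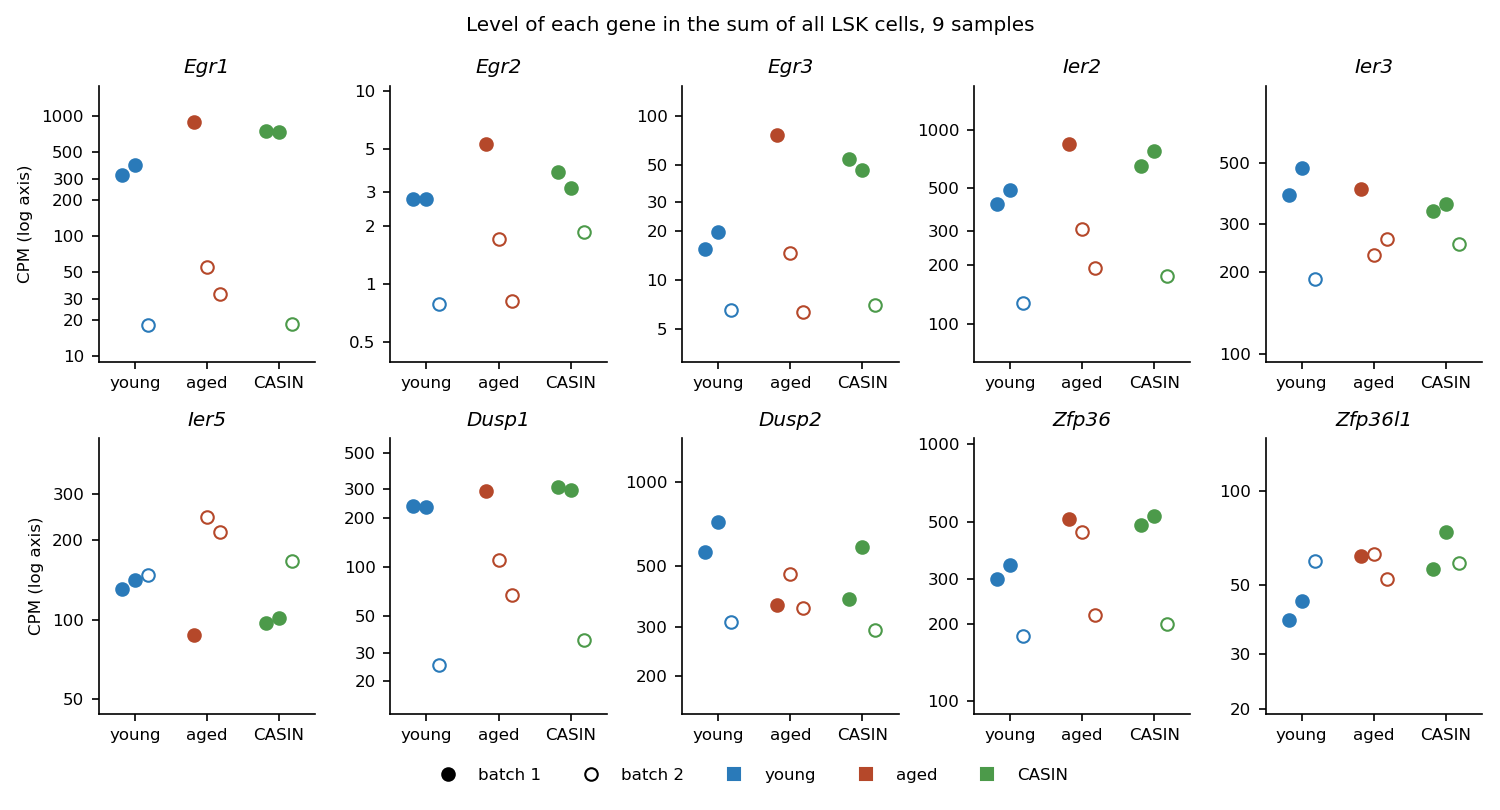
Level of each of the 10 genes in the sum of all LSK cells, in CPM on a log axis, 1 point per sample, with batch 1 filled and batch 2 open. Egr1 lies at 322 to 883 CPM in the 5 samples of batch 1 and at 17.96 to 55.2 CPM in the 4 samples of batch 2, and within batch 1 aged 1, CASIN 1 and CASIN 2 lie above both young samples.

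The levels of most members differed more between the sequencing batches than between the groups. Levels are in CPM, the usual scaling of the UMIs of a gene to the total UMIs of the summed cells. Differences are log2 fold changes from edgeR's quasi-likelihood test with group and batch as terms. Egr1 stood at 322, 391 and 17.96 CPM in young 1, 2 and 3, at 883, 55.2 and 32.7 CPM in aged 1, 2 and 3, and at 749, 725 and 18.6 CPM in CASIN 1, 2 and 3. Each sample of batch 1 was thus above each sample of batch 2, and the fitted difference of batch 2 over batch 1 was -4.70 ± 0.24 (log2, SE; adjusted p = 3.68e-07). In batch 2, 8 members were lower and 1 was higher, read against 37.6% of all 13642 genes that were called lower and 34.3% that were called higher (71.8% in all). A batch difference as such was thus the rule among genes. Dusp1 was lower by -2.75 ± 0.29, Egr3 by -2.49 ± 0.31, Ier2 by -1.93 ± 0.15 and Egr2 by -1.63 ± 0.29. Ier5 was the member that was higher in batch 2, by 0.68 ± 0.19 (adjusted p = 0.00907). Zfp36l1 did not pass the test (0.02 ± 0.14, adjusted p = 0.882). Dusp2 passed it by little (-0.60 ± 0.24, adjusted p = 0.0458). It lost the call in 8 of 15 alternatives, among them leaving out young 1, young 2, young 3, aged 3, CASIN 2 or CASIN 3. The batch is a property of the sequencing runs as labelled, and each group had samples in both. The differences between groups that follow were therefore fitted with batch as a term.

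In aged LSK cells Egr1, Egr3 and Ier2 were higher than in young ones. These 3 members compare with 3.59% of the 13642 genes tested that were called higher and 4.1% called in either direction. Egr1 was higher by 1.43 ± 0.25 (log2, SE, adjusted p = 0.0207), with 1.32 within batch 1 and 1.26 within batch 2. Ier2, a nuclear regulator of growth factor responses, stood at 417, 488 and 128 CPM in young 1, 2 and 3, at 842, 309 and 194 CPM in aged 1, 2 and 3, and at 648, 776 and 177 CPM in CASIN 1, 2 and 3. In each batch the aged samples lay above the young ones, and Ier2 was higher by 0.98 ± 0.17 (adjusted p = 0.0206).

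Egr3, which binds the same GC-rich motif as Egr1, was higher by 1.58 ± 0.36 (adjusted p = 0.043). It stood at 15.5 and 19.5 CPM in young 1 and 2 and at 76.2 CPM in aged 1, whereas in batch 2 the aged samples (14.7 and 6.37 CPM) lay on either side of young 3 (6.55 CPM). The difference of Egr3 was 2.13 within batch 1 and 0.57 within batch 2. Its call was kept in 8 of 19 alternatives, and was lost when young 1, young 2, aged 1, aged 2 or any of the CASIN samples was left out. That of Egr1 was kept in 13 and that of Ier2 in 15 of 19. The other members did not pass the test in this comparison: Dusp1 (1.18 ± 0.32, adjusted p = 0.0752) and Zfp36 (0.89 ± 0.26, adjusted p = 0.086) came nearest, and Egr2 was at 0.72 ± 0.34. Ier3, Ier5, Dusp2 and Zfp36l1 were between -0.16 and 0.30. The median over the members was 0.80 against 0.01 over all genes. No member was called when young 1 or when young 2 was left out. Ier2 alone was called when cells were limited to a mitochondrial share of 5% in place of 10%.

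**Figure D2:**
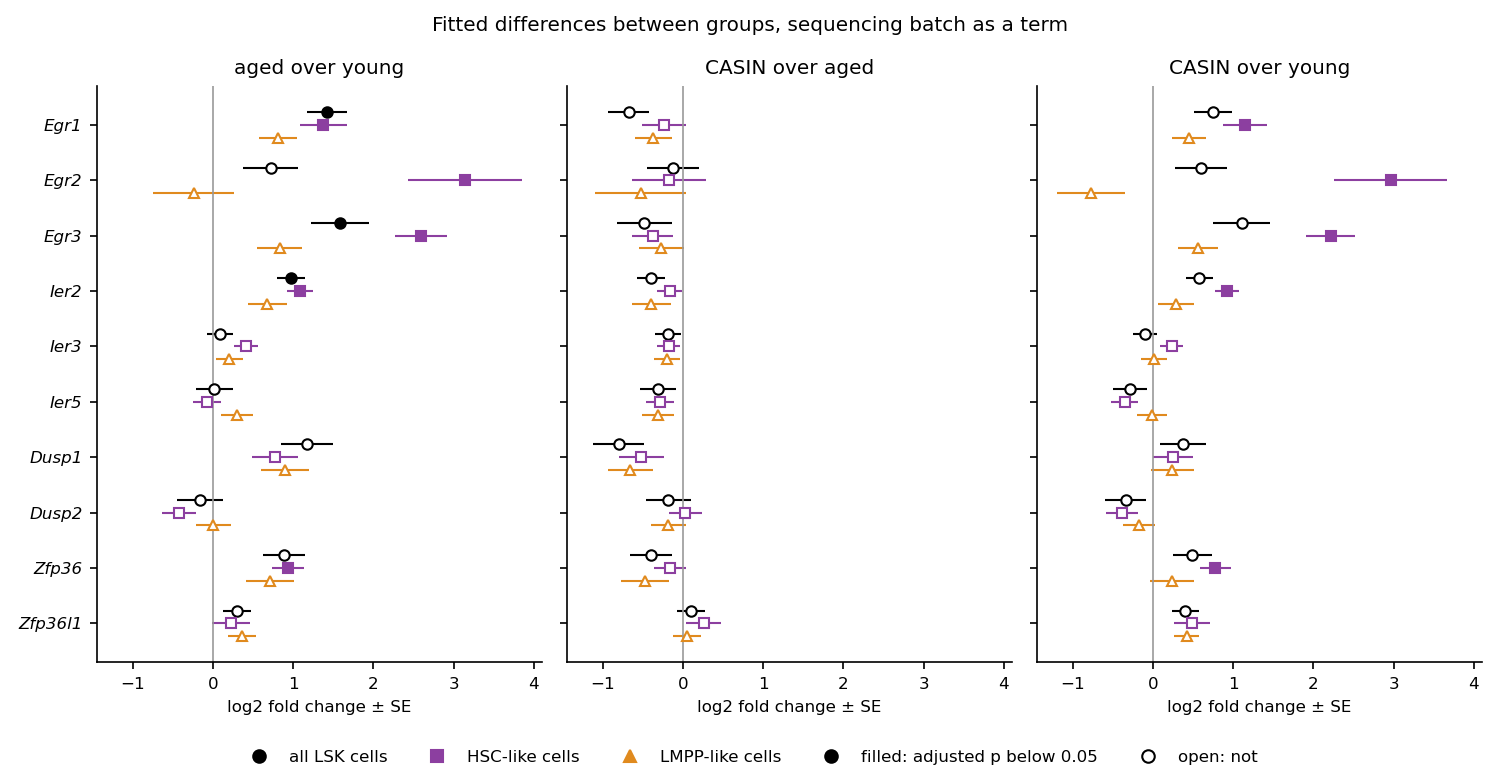
Fitted log2 fold changes (points) with standard errors (bars) of the 10 genes for aged over young, CASIN over aged and CASIN over young, in all LSK cells, HSC-like cells and LMPP-like cells, with filled symbols at an adjusted p below 0.05. Filled symbols are seen for Egr1, Egr3 and Ier2 in all LSK cells of aged over young and for Egr1, Egr2, Egr3, Ier2 and Zfp36 in HSC-like cells of both comparisons with young, and none for CASIN over aged.

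Within HSC-like cells 5 members were higher in aged than in young samples: all 3 Egr genes, Ier2 and Zfp36. The share called higher among all 11749 genes tested there was 5.32%, and 7.3% were called in either direction. Egr3 was higher by 2.60 ± 0.32 (adjusted p = 0.000677), from 12.6, 18.3 and 6.02 CPM in young 1, 2 and 3 to 105, 23.2 and 8.60 CPM in aged 1, 2 and 3. Here the aged samples lay above the young ones within each batch. Ier2 was higher by 1.09 ± 0.16 (adjusted p = 0.00207), with 1.29 within batch 1 and 0.79 within batch 2.

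Egr2, known as a regulator of myelin genes and of T cell tolerance, was rare, and its counts show the difference directly. HSC-like cells of young 1, 2 and 3 held 7, 0 and 1 UMIs of Egr2, those of aged 1, 2 and 3 held 58, 26 and 6, and those of CASIN 1, 2 and 3 held 28, 24 and 41. In CPM these are 1.40, 0 and 0.334 for young, 7.50, 5.25 and 1.32 for aged, and 5.14, 4.30 and 4.50 for CASIN, and the count of 0 in young 2 allows a level of up to 0.722 CPM (3 UMIs, counting error only). The fitted difference of aged over young was 3.14 ± 0.71 (adjusted p = 0.0193), the largest of the 10 members. It rests on these few UMIs. Without aged 1 it was 2.47 with an adjusted p of 0.22, without young 2 it was 2.51 with an adjusted p of 0.0678. Without young 1 it was 5.03 with an adjusted p of 0.0304.

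Egr1 in HSC-like cells stood at 347, 428 and 34.1 CPM in young 1, 2 and 3, at 1241, 47.8 and 38.6 CPM in aged 1, 2 and 3, and at 1136, 1166 and 25.1 CPM in CASIN 1, 2 and 3. Aged 1 was far above the young samples of its batch, while in batch 2 aged 2 and aged 3 were above young 3 by little. Egr1 was higher by 1.38 ± 0.29 (adjusted p = 0.0134), and the batches gave 1.77 (batch 1) and 0.39 (batch 2). Its adjusted p rose to 0.163 without aged 1, 0.0733 without young 1 and 0.0759 without young 2, and to 0.115 with DESeq2. Zfp36 was higher by 0.94 ± 0.20 (adjusted p = 0.0139), from 347, 349 and 232 CPM in young to 669, 451 and 272 CPM in aged 1, 2 and 3. It lost the call without young 1, young 2 or aged 1. The count of called members was 2 without young 2 and 3 without young 1. Without aged 1 it was also 3, but Egr1, Egr2 and Zfp36 lost the call there. That count thus includes a member not called in the fit above.

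The phosphatase genes, the other Ier genes and Zfp36l1 did not pass the test in HSC-like cells. Dusp1 was at 0.77 ± 0.29 (adjusted p = 0.132), Ier3 at 0.41 ± 0.15 (adjusted p = 0.116), Zfp36l1 at 0.23 ± 0.23, Ier5 at -0.07 ± 0.17 and Dusp2 at -0.42 ± 0.21 (adjusted p = 0.274). Dusp2, whose product acts in the nucleus on ERK and p38, stood at 410.4, 549.9 and 449.8 CPM in young 1, 2 and 3 and at 264, 406 and 372 CPM in aged 1, 2 and 3, so that each aged sample was below each young sample. Mitochondrial shares of kept cells also moved with the groups, from medians of 2.87% and 2.65% in young 1 and 2 to 3.44% in aged 1, and from 5.03% in young 3 to 6.997% and 5.91% in aged 2 and 3. With a limit of 5%, Egr2 (2.83), Egr3 (2.80), Ier2 (1.13) and Zfp36 (0.96) kept the call in HSC-like cells, and Egr1 was at 1.28 with an adjusted p of 0.0521.

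In LMPP-like cells none of the 10 members was called between aged and young samples, where 0.381% of 11013 genes were called. DESeq2 also called none, but 5 members were called by edgeR with no low-count filter. With the filter, 5 members had an unadjusted p below 0.05 in edgeR, namely Egr1 (0.82 ± 0.24), Egr3 (0.83 ± 0.28), Ier2 (0.68 ± 0.24), Dusp1 (0.90 ± 0.29) and Zfp36 (0.71 ± 0.30). Egr1 in these cells stood at 339, 440.3 and 11.05 CPM in young 1, 2 and 3 and at 466, 41.2 and 27.6 CPM in aged 1, 2 and 3. In contrast to HSC-like cells, the larger of the within-batch values was that of batch 2 (1.61), and batch 1 gave 0.31.

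The difference of aged over young itself differed between HSC-like and LMPP-like cells for 4 members, in an edgeR fit over both classes with the sample as a block and class by batch as a term, where 2.65% of 12077 genes were called. It was larger in HSC-like cells for Egr2 (by 3.48 ± 0.83, adjusted p = 0.0255), Egr3 (by 1.77 ± 0.23, adjusted p = 0.000169) and Egr1 (by 1.01 ± 0.25, adjusted p = 0.0339), and lower for Dusp2 (by -0.42 ± 0.10, adjusted p = 0.0204). Ier2 (0.54 ± 0.18, adjusted p = 0.123) and the remaining 5 members did not pass this test. Without aged 1, the one aged sample of batch 1, 1 member was called: the difference was 0.05 for Egr1 (adjusted p = 0.994) and 0.93 for Egr3 (adjusted p = 0.309). That of Egr2 was still 3.37, with an adjusted p of 0.434. Dusp2 kept its call there (-0.53, adjusted p = 0.0315), and lost it without young 3 (-0.21, adjusted p = 0.288), without aged 2 (-0.36, adjusted p = 0.101) and at a mitochondrial limit of 5% (-0.24, adjusted p = 0.192). The count was 2 without young 2 and 2 with clusters at a resolution of 0.8.

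**Figure D3:**
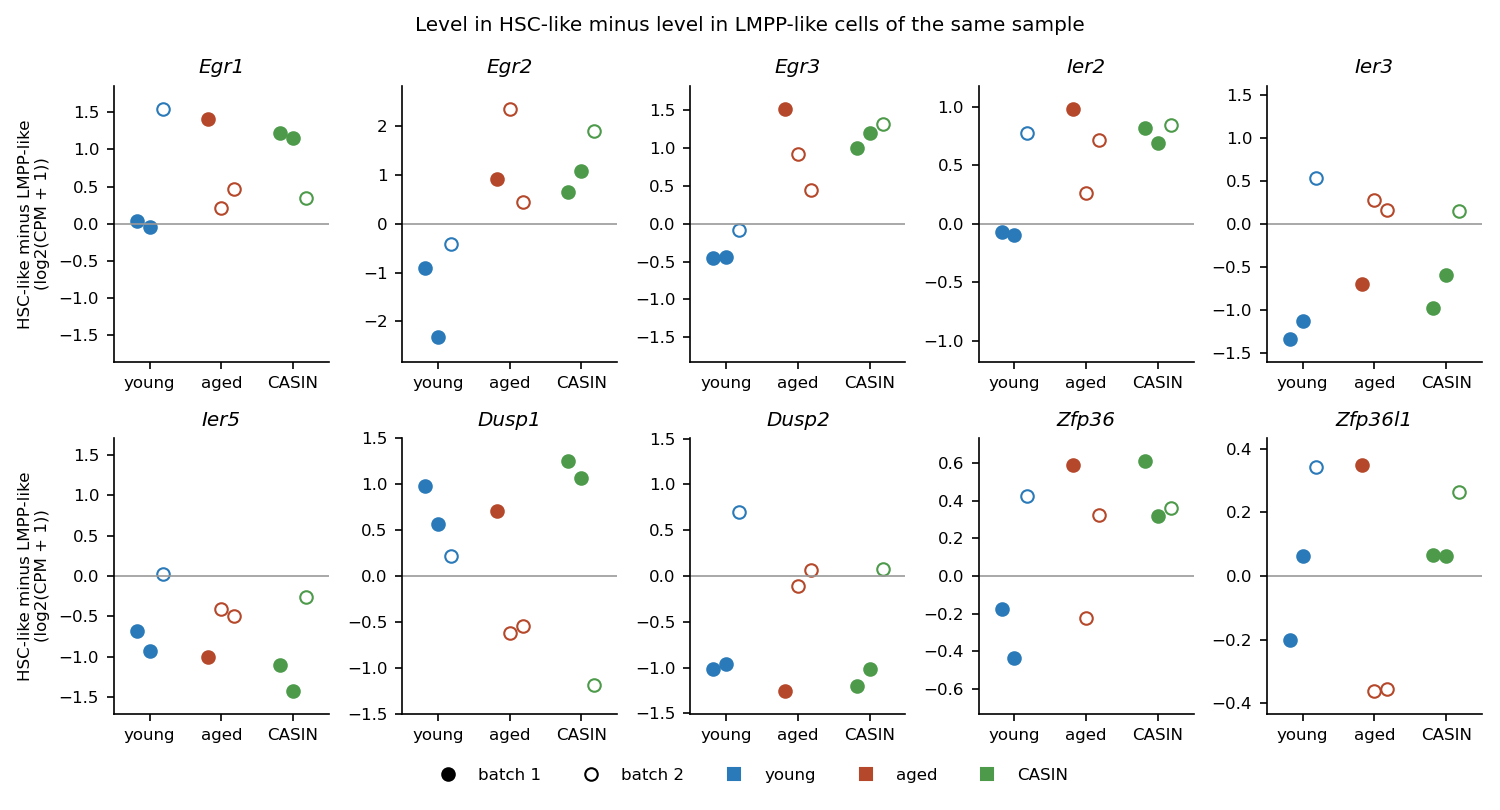
Level in HSC-like cells minus level in LMPP-like cells of the same sample, as a difference of log2(CPM + 1), 1 point per sample, with batch 1 filled and batch 2 open. Egr2 and Egr3 are below 0 in the 3 young samples and above 0 in the 6 aged and CASIN samples, while Ier3 and Dusp2 separate by batch. Within each batch the young samples of Dusp2 also lie above the aged ones.

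Sample by sample, Egr2 was lower in HSC-like than in LMPP-like cells of young 1, 2 and 3 (differences of log2(CPM + 1) of -0.91, -2.32 and -0.41) and higher in aged 1, 2 and 3 (0.91, 2.36 and 0.45) and CASIN 1, 2 and 3 (0.65, 1.09 and 1.91). Egr2 UMIs in LMPP-like cells were few, at 29, 30 and 3 in young 1, 2 and 3. They were 9, 1 and 3 in aged 1, 2 and 3 and 9, 6 and 2 in CASIN 1, 2 and 3. The Egr2 difference of young 3 thus sets 1 UMI in HSC-like cells against 3, and that of aged 2 sets 26 against 1. Egr3 lay between -0.45 and -0.08 in the young samples and between 0.45 and 1.52 in the other 6. For Egr1, young 3 had the highest difference of all 9 samples (1.54) while young 1 and young 2 were at 0.03 and -0.04. Aged 1 was at 1.41, but aged 2 and aged 3 were at 0.21 and 0.47. In batch 2 the aged samples thus lay below young 3, opposite to batch 1 and to the fitted difference.

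CASIN over aged, the comparison that asks what the inhibitor changed in aged mice, gave no called member in all LSK cells, HSC-like cells or LMPP-like cells. None of the 13642, 11749 and 11013 genes tested (0%) was called there by edgeR, although 439, 360 and 617 had an unadjusted p below 0.05, and DESeq2 called no member either. In all LSK cells the fitted difference was below 0 for 9 of the 10 members, with a median of -0.35 against -0.01 over all genes. The members with an unadjusted p below 0.05 there were Egr1 (-0.68 ± 0.25), Dusp1 (-0.80 ± 0.32) and Ier2 (-0.40 ± 0.17), each with an adjusted p of 0.987. In LMPP-like cells it was Dusp1 (-0.65 ± 0.28, adjusted p = 0.836).

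For Egr1 the aged samples lay above the CASIN samples in each batch, at 883 CPM against 749 and 725 in batch 1 and at 55.2 and 32.7 CPM against 18.6 in batch 2. Dusp1, the phosphatase that dampens p38 and JNK, stood at 236, 235 and 25.4 CPM in young 1, 2 and 3, at 295, 110.5 and 68.0 CPM in aged 1, 2 and 3, and at 309, 299 and 35.7 CPM in CASIN 1, 2 and 3. Its difference of CASIN over aged was 0.01 within batch 1 and -1.30 within batch 2, so the batches did not share a direction. In HSC-like cells the values of CASIN over aged were -0.23 ± 0.28 for Egr1, -0.18 ± 0.46 for Egr2, -0.38 ± 0.26 for Egr3, -0.17 ± 0.16 for Ier2, -0.52 ± 0.28 for Dusp1 and -0.16 ± 0.20 for Zfp36. With 3 samples a group these errors leave room for differences in either direction, and a value that misses the threshold does not show that CASIN and aged samples were alike. The test of whether CASIN over aged differed between HSC-like and LMPP-like cells called none of the members and 1 of 12077 genes (0.00828%), and the values ranged from -0.12 (Egr3) to 0.27 (Zfp36l1).

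CASIN over young, with the same young samples as the comparison above, gave no called member in all LSK cells by edgeR (4.27% of genes called, and 3273 genes with an unadjusted p below 0.05). Ier2 (0.58 ± 0.16, adjusted p = 0.0798), Egr1 (0.75 ± 0.24, adjusted p = 0.104) and Egr3 (1.11 ± 0.35, adjusted p = 0.104) came nearest. DESeq2 called 2 members there. In edgeR 2 members were called without aged 1 or aged 2 and 3 without young 3. In HSC-like cells 5 members were higher in CASIN than in young samples, against 7.94% of genes called higher and 12.6% in either direction. Egr3 was higher by 2.22 ± 0.31 (adjusted p = 0.000899), with CASIN 1, 2 and 3 at 81.4, 74.0 and 12.5 CPM, each above the young samples of its batch. Egr2 was higher by 2.96 ± 0.70 (adjusted p = 0.0156), Ier2 by 0.92 ± 0.16 (adjusted p = 0.00262) and Zfp36 by 0.78 ± 0.19 (adjusted p = 0.02).

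Egr1 was higher by 1.15 ± 0.28 (adjusted p = 0.0169) in this fit, but the batches went opposite ways, with 1.63 within batch 1 and -0.34 within batch 2, where CASIN 3 (25.1 CPM) was below young 3 (34.1 CPM). Ier2 stood at 449.9, 543 and 174 CPM in young 1, 2 and 3 and at 907, 1162 and 235 CPM in CASIN 1, 2 and 3, and Zfp36 at 669, 739 and 243 CPM in CASIN 1, 2 and 3. For both genes CASIN samples were above the young samples of their batch. The count of 5 fell to 3 without young 1 or CASIN 1 and to 2 without young 2. In LMPP-like cells no member was called (0.218% of genes), by DESeq2 neither, and Egr1 (0.45 ± 0.21), Egr3 (0.56 ± 0.25) and Zfp36l1 (0.42 ± 0.16) had an unadjusted p below 0.05 in edgeR. The same test for CASIN over young was added after the data were seen. The difference was larger in HSC-like than in LMPP-like cells for Egr2 (by 3.59 ± 0.77, adjusted p = 0.00625), Egr3 (by 1.64 ± 0.20, adjusted p = 4.05e-05), Egr1 (by 1.01 ± 0.22, adjusted p = 0.00709) and Ier2 (by 0.70 ± 0.17, adjusted p = 0.0125), against 5.7% of genes called. Zfp36 was at 0.58 ± 0.18 (adjusted p = 0.0541). This count was 2 without young 1, young 2 or CASIN 1. The Egr1 level in HSC-like minus LMPP-like cells (log2(CPM + 1)) was 1.22 and 1.15 in CASIN 1 and 2, against 0.03 and -0.04 in young 1 and 2. In batch 2 it went the other way, at 0.35 in CASIN 3 against 1.54 in young 3. For Ier2 the samples of batch 2 were close, at 0.84 in CASIN 3 and 0.78 in young 3.

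**Figure D4:**
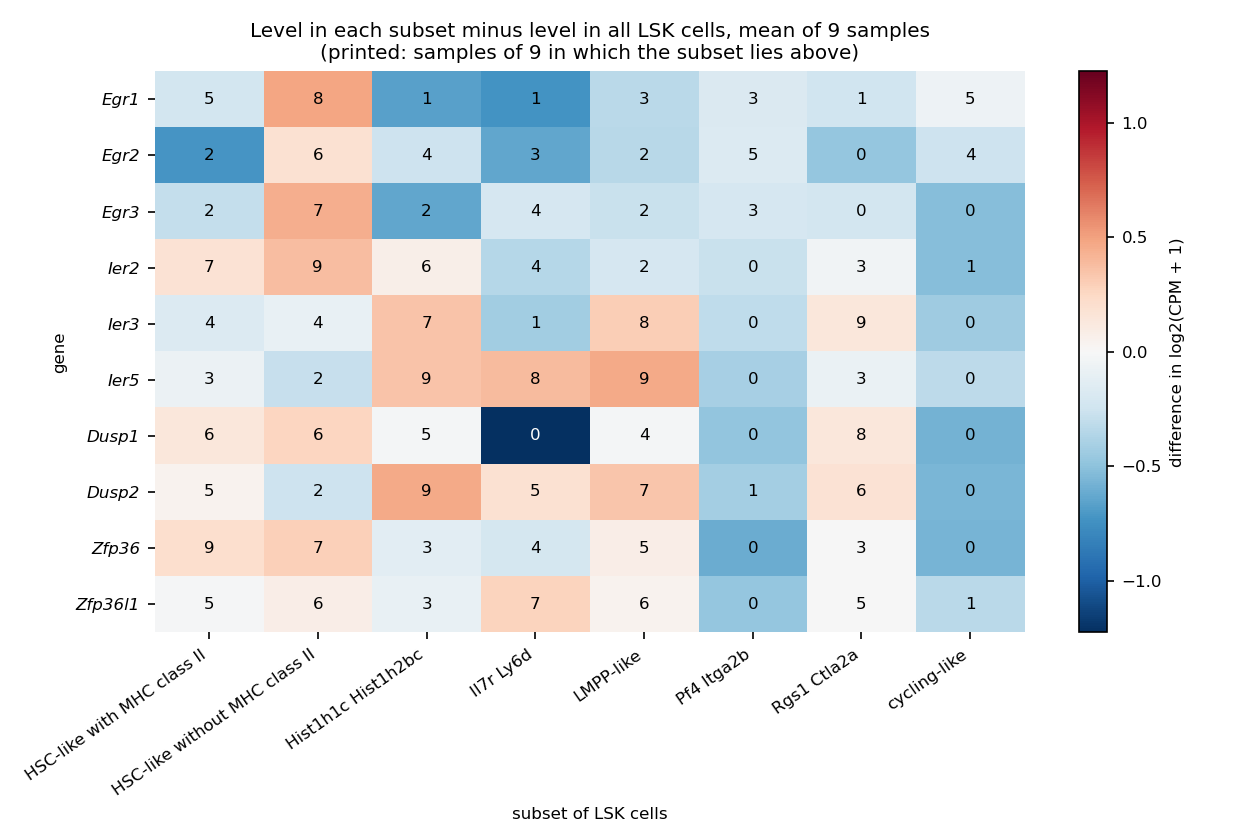
Mean over 9 samples of the level in each of 8 LSK subsets minus the level in all LSK cells of the same sample, as a difference of log2(CPM + 1), with the number of samples in which the subset lies above printed in each cell. Ier2 is above in 9 of 9 samples in HSC-like cells without MHC class II, Ier5 in 9 of 9 in LMPP-like cells, and Dusp1 in 0 of 9 in the Il7r Ly6d cluster.

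Across the 8 subsets the members did not share one order. Cells were grouped by their own expression, so the levels are a description with no test. Egr1, Egr2, Egr3, Ier2, Dusp1 and Zfp36 had their highest mean level over the 9 samples in HSC-like cells without MHC class II. By the median within a batch this did not hold for Egr2 in batch 1, where the Pf4 Itga2b cluster was higher (4.45 against 4.15 CPM). Nor did it hold in batch 2 for Zfp36 (256 CPM, against 263 CPM in HSC-like cells with MHC class II) and for Dusp1. For Ier2 these cells were above all LSK cells in 9 of 9 samples (mean difference of log2(CPM + 1) 0.37 ± 0.20, SD) and above the next subset, HSC-like cells with MHC class II, in 8. For Egr3 they were above the subset with the next highest mean, the Pf4 Itga2b cluster, in 9 of 9 samples. They were above all LSK cells in 7 of 9 (0.45 ± 0.37). Their lowest Egr3 value in batch 1 (14.3 CPM) was below the lowest of LMPP-like cells (17.6 CPM). For Egr1 they were above the next subset in 6 of 9 samples (0.48 ± 0.33 over all LSK cells). The order was thus not kept in every sample for Egr1 or Egr3.

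Ier5, which takes part in the heat shock response, had its highest mean level in LMPP-like cells (0.47 ± 0.26, above all LSK cells in 9 of 9 samples), and the Il7r Ly6d cluster (0.39 ± 0.25) and the Hist1h1c Hist1h2bc cluster (0.35 ± 0.14) followed within their spread. By the median in batch 2 Ier5 was higher in the Il7r Ly6d cluster (242 CPM) than in LMPP-like cells (232 CPM). Ier3, an inhibitor of apoptosis, and Dusp2 had their highest mean level in the Hist1h1c Hist1h2bc cluster, Ier3 at 0.35 ± 0.40 and Dusp2 at 0.46 ± 0.14. By the median in batch 2 Ier3 was lower there (239 CPM) than in HSC-like cells without MHC class II (298 CPM). By the median in batch 1 Dusp2 was lower there (778 CPM) than in LMPP-like cells (830 CPM). In batch 2 it was lower there (459 CPM) than in HSC-like cells with MHC class II (503 CPM). Zfp36l1 had its highest mean level in the Il7r Ly6d cluster, which carries genes of early lymphoid cells. It stood at 0.27 ± 0.38, above all LSK cells in 7 of 9 samples and above the next subset in 5. This did not hold by the median in batch 1, at 52.0 CPM against 62.9 CPM in HSC-like cells without MHC class II. The lowest mean levels fell to the cycling-like cells for Ier2, Ier3 and Dusp2 and to the Pf4 Itga2b cluster, which carries megakaryocyte genes, for Ier5, Zfp36 and Zfp36l1. By the median this did not hold in batch 1 for Ier3 (314 CPM in cycling-like cells, 271 CPM in HSC-like cells with MHC class II). Nor did it hold there for Zfp36 and Zfp36l1 (315 and 38.1 CPM, against 252 and 36.6 CPM in cycling-like cells). In batch 2 it failed for Ier2 (152 CPM, against 141 CPM in LMPP-like cells), and for Ier5 in both batches. Zfp36 was below all LSK cells in the Pf4 Itga2b cluster in each of the 9 samples (-0.61 ± 0.13). Dusp1 in the Il7r Ly6d cluster lay at -1.23 ± 0.80. In batch 1 its median was 446 CPM in HSC-like cells without MHC class II and 119 CPM in that cluster. In batch 2 these were 41.7 and 39.9 CPM, below the LMPP-like cells (69.7 CPM) and the Hist1h1c Hist1h2bc cluster (70.2 CPM).

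The comparison of aged with young samples was also made in each subset. In HSC-like cells without MHC class II 6 members were higher, against 5.53% of genes called higher, namely the 5 of the joint HSC-like class and Ier3 (0.48, adjusted p = 0.0486). In the 896 HSC-like cells with MHC class II Egr1 (1.68), Egr3 (2.53) and Ier2 (0.86) were higher, against 1.3% of genes, and Egr2 was too low to be tested. The same 3 genes were higher in the Rgs1 Ctla2a cluster (Egr1 1.54, Egr3 1.81 and Ier2 0.82, against 1.02% of genes) and in the Pf4 Itga2b cluster (Egr1 1.37, Egr3 2.10 and Ier2 0.83, against 1.15%), where Egr2 was not tested either. No member was called by edgeR in the cycling-like cells (0.222% of genes called in either direction), the Hist1h1c Hist1h2bc cluster (0.114%) or the Il7r Ly6d cluster (0.0136%), and Egr2 was not tested there. Whether the age difference differed among these clusters was not tested.

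For Ier3, Ier5, Dusp1 and Dusp2 the relation between HSC-like and LMPP-like cells changed with the sequencing batch. Ier3 was lower in HSC-like than in LMPP-like cells in the 5 samples of batch 1 (-1.34 to -0.60 in log2(CPM + 1)) and higher in the 4 samples of batch 2 (0.15 to 0.54). Dusp2 went from -1.25 to -0.96 in batch 1 to values from -0.11 to 0.70 in batch 2. Dusp1 went the other way, from 0.57 to 1.25 in batch 1 to values from -1.18 to 0.22 in batch 2. Ier5 was at -1.42 to -0.68 in batch 1 and at -0.50 to 0.02 in batch 2.

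In CPM, Dusp2 in LMPP-like cells ran from 587 to 1073 in batch 1 and from 277 to 439.7 in batch 2, and in HSC-like cells from 254 to 549.9 and from 325 to 449.8. The batch difference, a test added after these values were seen, was larger (more positive) in HSC-like cells by 1.36 ± 0.08 for Dusp2 (adjusted p = 9.91e-11), by 1.19 ± 0.11 for Ier3 (adjusted p = 1.34e-07) and by 0.81 ± 0.10 for Ier5 (adjusted p = 6.59e-06). It was lower by -1.54 ± 0.18 for Dusp1 (adjusted p = 3.32e-06). The share of all genes called by this test was 16.5%. These calls were kept in each of 14 alternatives. Egr1 (-0.46 ± 0.25), Egr3 (-0.19 ± 0.22), Ier2 (0.09 ± 0.15) and Zfp36 did not pass it.

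**Figure D5:**
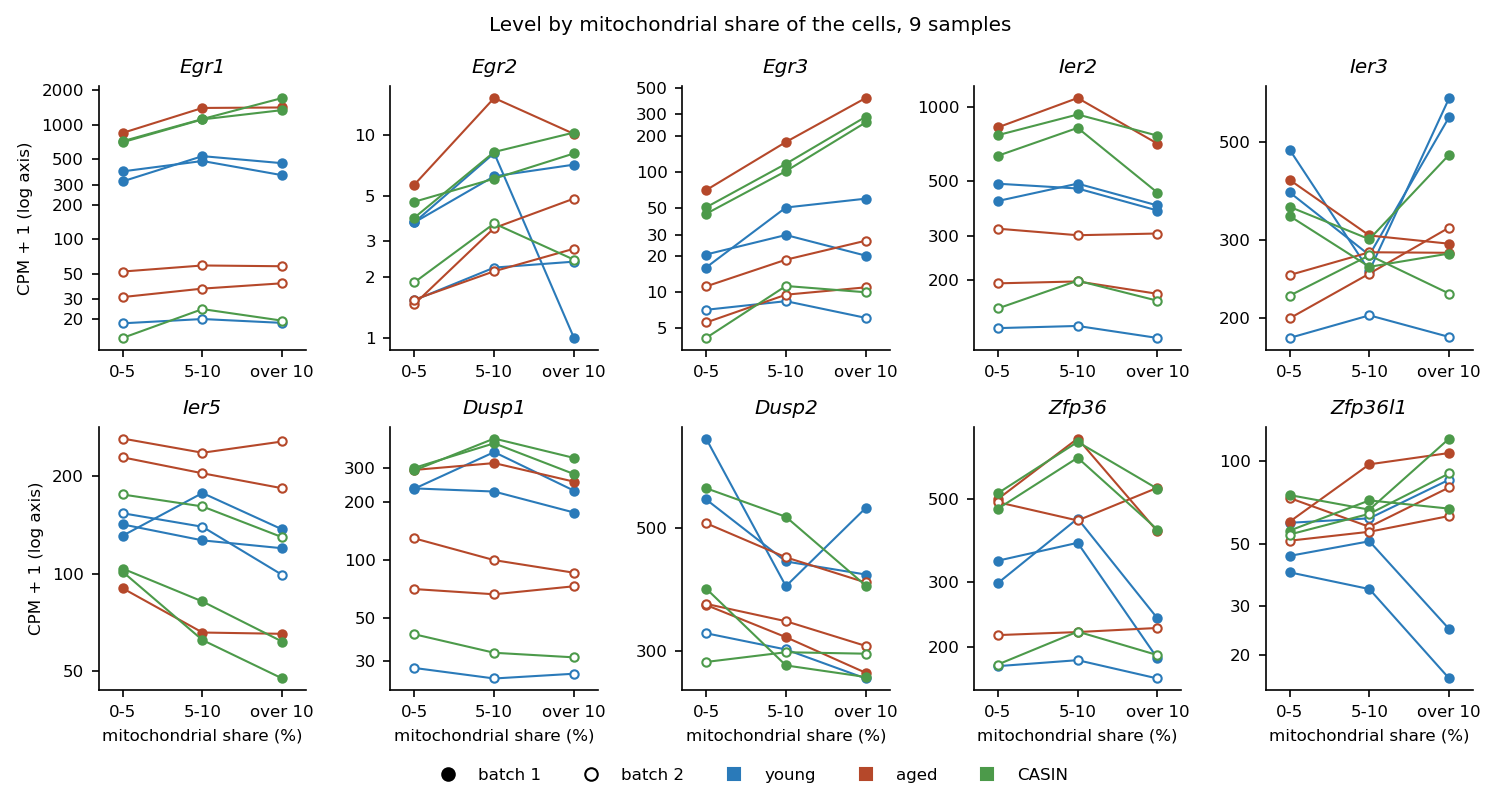
Level (CPM + 1, log axis) of each gene in cells with a mitochondrial share of 0 to 5%, 5 to 10% and over 10%, 1 line per sample, with batch 1 filled and batch 2 open. The Egr1 lines of batch 1 stay above those of batch 2 in each bin, and Egr1, Egr2 and Egr3 rise from the first bin to the second in each of the 9 samples.

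The mitochondrial share of a cell, which differs between the batches, was set beside the levels. Cells with a share of 5 to 10% had more Egr1 than cells of up to 5% in 5 of 5 samples of batch 1 (log2 ratios of 0.30 to 0.73) and 4 of 4 of batch 2 (0.12 to 0.84). The same count held for Egr2 (0.38 to 1.42 and 0.47 to 1.25) and Egr3 (0.54 to 1.66 and 0.24 to 1.44). Dusp2 was lower in these cells in the 5 samples of batch 1 (-0.88 to -0.17). The bins pool all subsets, whose mix differs between them. At the limit of 5%, 2189 of 3819 HSC-like cells without MHC class II and 2354 of 3084 LMPP-like cells remained. The part of this mix in the ratios was not tested. The bin of 5 to 10% held 63 cells in young 1 and 34 in young 2, so Egr2 there (5.29 and 7.18 CPM) rests on few UMIs. The batch difference of Egr1 was there within a bin, with 319 to 848 CPM in batch 1 against 12.7 to 51.0 CPM in batch 2 among cells of up to 5%. Cells over 10% were left out of the comparisons. The part of the mitochondrial share in the batch difference was not tested otherwise.

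Per cell, with each cell thinned to 4000 UMIs, 55.9% to 92.7% of HSC-like cells in batch 1 and 7.44% to 15.3% in batch 2 held an Egr1 UMI. Without thinning the shares were 73.8% to 97.5% and 14.7% to 28.7%, at median depths of 8565 to 12560 and 8444.5 to 10316 UMIs. No subset is known to lack Egr1. The Il7r Ly6d cluster had the lowest mean level over both batches, although its median in batch 2 (31.7 CPM) was above that of LMPP-like cells (23.6 CPM). It had thinned shares of 53.1% to 70.6% in batch 1 and up to 21.2% in batch 2. Unthinned they were 81.5% to 91.2% and 6.06% to 44.9%, at median depths of 14616.5 to 21039 and 15919 to 19079 UMIs. Free RNA as a source of these UMIs was not tested. Ier5 had the opposite order, with 22.2% to 32.7% of HSC-like cells in batch 1 and 43.2% to 59.2% in batch 2 after thinning.

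Other genes followed the members over the 72 sums of 9 samples and 8 subsets, once the mean of each sample and of each subset was taken out of log2(CPM). Likeness is given as Pearson's r across sums that share libraries, as a description. Batch differences that vary with the subset were not taken out, and their part in r was not tested. Among 5683 genes and outside the 10 members, those most like Egr1 were Junb (0.675), Nfkbiz (0.661) and Rhob (0.629). Ier2 was followed most closely by Ppp1r15a (0.793), Cebpb (0.757) and Junb (0.695), Dusp1 by Jun (0.805), Pim3 (0.731) and Fosb (0.688), and Zfp36 by Junb (0.793), Tgoln1 (0.674) and Ppp1r15a (0.662). Among the members, r was 0.742 between Ier2 and Zfp36, 0.683 between Egr1 and Zfp36 and 0.657 between Egr1 and Ier2.

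Other early response genes were read from lists chosen with earlier results of these data known. In all LSK cells of aged over young, 3.59% of all genes tested were called higher. There 7 of 11 AP-1 genes were called higher and none lower, led by Fosb (1.71 ± 0.32), Maff (1.51 ± 0.20) and Atf3 (1.51 ± 0.28). The median of the AP-1 list was 1.21 against 0.01 over all genes. Of the Nr4a nuclear receptor genes 2 of 3 were higher, Nr4a2 (2.27 ± 0.32) and Nr4a1 (1.78 ± 0.30). Of 25 tested Klf, Btg and other early genes 13 were higher, led by Cyr61 (3.38 ± 0.53), Sgk1 (1.75 ± 0.32) and Klf2 (1.39 ± 0.27). The share of HSC-like cells moves with the groups beside these values too, and its part in them was not tested. With clusters at a resolution of 0.8, Cyr61 was among the 10 leading genes of a cluster with HSC marker genes.

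Of 11 other Dusp genes Dusp8 was called higher (1.81 ± 0.28), of 6 Sprouty and Spred genes, which restrain receptor signalling to ERK, Spry4 (1.50 ± 0.35), and of 3 other Egr family and Nab genes none. None of 22 genes of the MAP kinase cascade itself and none of 9 genes of the serum response factor and its partners was called in this comparison by edgeR. Of 9 tested mRNAs with AU-rich elements that Zfp36 is known to bind, Il1b (3.05 ± 0.70) and Ptgs2 (1.87 ± 0.26) were higher. Of 8 quiescence and cycle genes tied to Egr1, Cdkn1c (1.33 ± 0.20), which holds stem cells out of the cycle, and Ccnd1 (0.78 ± 0.16) were higher. Of 10 heat shock genes Dnajb1 was higher (0.88 ± 0.15). The Ier5 and Zfp36 relatives Ier5l and Zfp36l2 were not called. These counts stand beside the 3.59% of all genes that were called higher in aged over young. The share of HSC-like cells moves with the groups beside them as well.

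CASIN over aged called no gene of any of these lists, with list medians of -0.72 for AP-1 genes and -0.33 for Klf, Btg and other early genes against -0.01 over all genes. In all LSK cells CASIN over young called 2 AP-1 genes (Maff at 0.80 ± 0.19 and Jund at 0.67 ± 0.08), Nr4a2 (1.63 ± 0.31), Cyr61 (3.51 ± 0.53), Id2 (0.86 ± 0.20) and Socs3 (0.79 ± 0.18) among 4 of the Klf, Btg and other early genes. It also called Ptgs2 (1.70 ± 0.25) and Cdkn1c (1.33 ± 0.19). The share of all genes called there in either direction was 4.27%. In HSC-like cells CASIN over young called 4 of 11 AP-1 genes, 2 of 3 Nr4a genes and 14 of 24 tested Klf, Btg and other early genes higher, and none of them lower. Of all genes tested in HSC-like cells 7.94% were called higher and 4.66% lower. There 7 of 10 heat shock genes, which respond to cell handling, were lower in CASIN than in young samples, among them Hspa1b (-2.57 ± 0.58) and Hspa1a (-2.18 ± 0.61), and Dnajb1 was higher (0.69 ± 0.16). The part of that list in the values of the members was not tested. Between the batches, where 34.3% of all genes were called higher and 37.6% lower (71.8% in all), the 3 Nr4a genes were higher in batch 2, while 6 AP-1 genes were lower and 4 higher, and 14 of the Klf, Btg and other early genes were lower and 6 higher.

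Genes of other cells that an LSK sort could carry over were summed in the same samples. The 7 mature neutrophil genes came to 6.24 to 89.7 CPM in young, 29.2 to 421 CPM in aged and 5.30 to 56.9 CPM in CASIN samples, and the 10 mature lymphocyte genes to 169.8 to 171, 136 to 526 and 151 to 245 CPM. By batch, the neutrophil sum was 5.30 to 29.7 CPM in batch 1 and 29.2 to 421 CPM in batch 2. The lowest aged value was thus also the lowest of batch 2. The lymphocyte sum was 136 to 245 CPM in batch 1 and 171 to 526 CPM in batch 2. The 7 red cell genes (12.9 to 47.8 CPM over all samples) and the 8 stromal and endothelial genes (41.3 to 71.4 CPM) were not higher in aged samples. No gene of these lists was at 0 in all samples. A single gene made up much of each sum. These were Hbb-bt (87.6% of the red cell sum), Nkg7 (54.9%, lymphocyte), Pecam1 (45.8%, stromal and endothelial) and S100a8 (44.9%, neutrophil). Hbb-bt was also among the 30 leading genes of the Rgs1 Ctla2a cluster, so its sum is not a measure of carried-over cells alone. Of the lymphocyte genes Klrb1c was called higher in aged (3.60 ± 0.37) and in CASIN samples (3.56 ± 0.36) over young ones, and of the neutrophil, red cell and stromal genes none was called between groups in all LSK cells by edgeR. In HSC-like cells Emcn, an endothelial gene that stem cells also carry, was lower in aged (-0.54 ± 0.13) and in CASIN samples (-0.61 ± 0.12) than in young ones, and Kdr was higher in CASIN than in young samples (1.28 ± 0.31). The part of such cells in the values of the members was not tested.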

How the data were processed

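Single LSK cells of 9 samples were measured by droplet RNA-seq with molecular identifiers (10x Genomics 3′ v3). The authors made the deposited count matrices, UMI counts per gene and barcode, with Cell Ranger 3.1.0 on the GRCm38 (mm10) genome, and their values were used as raw counts. UMIs remove PCR duplicates, but reads near the 3′ end alone are counted, so levels are not set between genes. Groups and batches follow the sample labels.

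Cells were kept with 1000 to 40000 UMIs, at most 6000 genes, a mitochondrial share of at most 10% and a residual of genes on UMIs within 0.4. Scrublet marked 67 cells (0.423%), too few to be taken as a working doublet call, so no cell was removed for it. Clusters were built with Seurat 5.3.0 and sctransform 0.4.2 (35 principal components, resolution 0.4). Departing from the study's methods, samples were integrated in the principal components, cell cycle scores came from the lists in Seurat, and 45 immediate early genes were left out of the features. 13 clusters resulted. 8 were fitted, and 5 (1127 cells) had under 20 cells in some sample.

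UMIs were summed per sample and subset and tested with edgeR 4.0.16 (TMM, filterByExpr, quasi-likelihood F test, group and batch as terms, all 9 samples), with Benjamini-Hochberg adjustment over all genes tested and a threshold of 0.05. The standard error is the log2 fold change over the root of F. Within-batch values are differences of mean log2 CPM with a prior count of 2. Differences between HSC-like and LMPP-like cells were tested in one fit of both sums per sample. Scripts were tested on simulated data. Alternatives were DESeq2 1.42.0, its size factors, no filter, no batch term, a replicate block, only the groups compared, other clusters, other mitochondrial limits, doublet scores and each sample left out.

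The members and gene lists were chosen with earlier results of these data known. The text names all members, up to 3 called genes per list and comparison with the largest change and 1 direction in both batches, and the 3 genes most like Egr1, Ier2, Dusp1 and Zfp36. Lists covered other Egr and Nab, Ier, Zfp36 and Dusp genes, Sprouty and Spred, the MAP kinase cascade, serum response factor, AP-1, Nr4a, Klf, Btg and other early genes, heat shock, Zfp36 targets, quiescence, and markers of lymphocytes, red cells, neutrophils and stroma. Intervals and floors cover counting error only.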

Additional observations from a re-analysis of the deposited data

Results flagged for a closer look

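The effect of age differed between HSC-like and LMPP-like cells by a test of the difference itself (edgeR, both classes in one fit) for 4 members. On the log2 scale, the difference between aged and young HSC-like cells exceeded the one in LMPP-like cells by 1.01 for Egr1, 3.48 for Egr2 and 1.77 for Egr3, and Dusp2 had a difference of -0.42. The call was kept in 6 of 14 alternatives for Egr1, whose difference was 0.05 without aged 1, in 11 for Egr2, in 13 for Egr3 and in 10 for Dusp2. In batch 2 Egr1 went the other way. Its level in HSC-like minus LMPP-like cells (log2(CPM + 1)) was 0.21 and 0.47 in aged 2 and 3 against 1.54 in young 3. For CASIN over young the same test found differences of 1.01 for Egr1, 3.59 for Egr2, 1.64 for Egr3 and 0.70 for Ier2. These calls were kept in 10, 14, 14 and 10 of 14 alternatives in that order. For Egr1 the levels of batch 2 again went the other way, at 0.35 in CASIN 3 against 1.54 in young 3. The comparisons share their young samples, so the values are not independent of each other.

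The batch difference also differed between the classes by the same test, with 1.19 for Ier3, 0.81 for Ier5, -1.54 for Dusp1 and 1.36 for Dusp2. These 4 values separate samples by sequencing batch, and each group has samples on both sides. Dusp2 also had the difference with age given above.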

How the results depend on the processing

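The count of called members for aged over young in all LSK cells (3) was 5 with no low-count filter, 0 without the batch term, 0 with only the groups compared, 1 at a mitochondrial limit of 5% and 0 to 4 with each sample left out in turn. In HSC-like cells (5) it was 8 with no filter, 0 without the batch term and 2 to 5 with a sample left out, and in LMPP-like cells (0) it was 5 with no filter and 0 to 1 with a sample left out. For CASIN over young it was, in all LSK cells (0), 2 with DESeq2, 3 with no filter, 5 with only the groups compared and 0 to 3 with a sample left out, and in HSC-like cells (5) 0 without the batch term and 2 to 7 with a sample left out. For CASIN over aged it was 0 in all LSK cells and HSC-like cells under each alternative run, and in LMPP-like cells 2 with no filter. The members whose difference of aged over young differed between the classes (4) were 2 at a resolution of 0.8 and 1 to 6 with a sample left out. For CASIN over aged (0) they were 0 to 1 and for CASIN over young (4) 2 to 6 with a sample left out. The cause of these changes was not tested. No called value reversed, and of 2634 values of members under alternatives 168 without a call changed sign.

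Samples were not treated as paired by replicate number. In deviations from the group mean, same-numbered samples followed the batch, at 0.726 (young 1 and aged 1) but at -0.614 (young 2 and aged 2). These values cannot show a pairing. With the batch also taken out, same-numbered samples correlated at -0.479 (young 1 and aged 1) to 0.268 (young 2 and aged 2). Differently numbered ones were at -0.513 (young 2 and aged 1) to 0.751 (young 3 and aged 1). With the number as a replicate block the count for aged over young was 1 in all LSK cells and 3 in HSC-like cells, and for CASIN over young 1 and 6. For aged over young in HSC-like cells, Egr1, Egr2 and Zfp36 lost the call with the block. The count of 3 thus includes a member not called without it. Depth limits Egr2 most, whose HSC-like sums hold 0 to 58 UMIs and whose LMPP-like sums hold 1 to 30.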
